A study of Mus musculus with 2 samples.

Results

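Fatty acid oxidation and ketogenesis genes were followed in mouse liver as 39 genes, chosen by name from the array's own gene names, of 31093 gene names on the array and 19971 measured on both arrays. All 39 were measured, through 52 probes printed at 79 spots, and every one of those spots was well above background on both arrays. The liver RNA came from C57BL/6N mice that were either wild type or Pnpla8-/-, and it was hybridised to 2 one-colour arrays, 1 per genotype. Each array held equal amounts of RNA from 5 animals. The sample labels give the age as 6 weeks but the series' design text gives 8 weeks, and neither could be preferred here. No tissue restriction of the deletion and no further treatment is stated, so the groups differ in the labels by genotype alone. Pnpla8 encodes a calcium-independent phospholipase A2, and the study asked how phosphatidylcholine breakdown in liver supplies choline.

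Because a genotype is 1 pool on 1 array, the differences below carry no p-value and no error between animals, and an effect of genotype cannot be told apart from one of the pool or the array. Values are log2 ratios of the knockout pool over the wild-type pool, after each array was divided by the 75th percentile of its processed signal. A scaled signal is a signal in multiples of that percentile, and can be compared between the arrays for a probe but not between probes. As a check of the labels, the probe for Pnpla8 read 144.5 for the wild type but 4.45 for the knockout, where it was not well above background, so it was at least 6.81-fold lower. Whether that probe lies in the deleted part is unknown. The number of arrays limits the precision. The 75th percentile was 1207 for wild type against 1018 for knockout, and no spot of a gene was saturated. The log2 ratio of a probe spotted repeatedly had a median SD of 0.03 between its spots at signals above that percentile (121 probes). Different probes of a gene differed by a median SD of 0.09 (4274 genes). Both are technical spreads and say nothing of the spread between animals.

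Fatty acids are activated to acyl-CoA, carried into mitochondria by the carnitine shuttle and shortened there by a cycle of dehydrogenation, hydration, dehydrogenation and thiolysis, while peroxisomes shorten very long, branched and dicarboxylic chains. In fasted liver much of the resulting acetyl-CoA is turned into ketone bodies for export. The nuclear receptor PPARA, paired with RXR, switches on many of these genes when fatty acids reach the liver, which makes the set a commonly used readout of its activity.

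In this comparison the ratios of the 39 genes were small. None of the 39 genes was 2-fold higher or lower in the knockout, against 1.29% of all measured genes that were 2-fold higher and 1.85% that were 2-fold lower. At such shares few if any of 39 genes would be counted, so the absence is not particular to these genes. Those background shares were 0.581% and 3.81% without scaling, 0.696% and 3.05% with the spike-in controls, 1.57% and 1.53% with median scaling, and 0.676% and 0.641% with the normexp background. A single gene passed 1.5-fold upward, Angptl4, where 4.42% of all measured genes did, and none passed 1.5-fold downward, where 5.94% did. The ratios ran from -0.41 for Vnn1 to 0.64 for Angptl4, with a median of 0.16 and an SD of 0.20 over the 39 genes. Over all measured genes the median was 0.04 and the SD 0.39. That SD includes dim genes and none was taken over bright genes alone, so the spreads are not matched for signal.

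Of the 39 genes 30 had a ratio above 0 (76.9%), where 56.9% of all measured genes did. Most members are brightly expressed, and among genes at or above the 75th percentile on both arrays 63.1% were above 0, beside 28 of the 36 members in that range (77.8%). In that bright range 0 of 36 members passed 2-fold in either direction, beside 1.18% of genes higher and 0.646% lower. At 1.5-fold, 1 member was higher and 0 lower, beside 4.12% and 2.43% of genes. The median of the bright genes was 0.06, and 25 of these 36 members (69.4%) lay above it. The count above 0 moves with the scaling. Without scaling 12 of 39 were above 0 beside 20.6% of all genes, and with the spike-in controls 17 beside 30.9%. These settings shift every gene by the same amount, so 29 of 39 members lay above the median of all genes under them as with the percentile scaling, and the members' median exceeded it by 0.12 in each. That excess was 0.06 with no filter on dim probes, which adds dim genes to the background, and 0.05 with the normexp background. With quantile normalization it was 0.02 (23 members above 0 beside 55.5% of all genes) and with loess 0.03 (24 beside 51.3%). Both of the latter remove any difference between the arrays that follows signal. The sign was the same under all 13 alternatives for 17 members. Of these, 12 were higher (Angptl4, Pex11a, Pdk4, Acot3, Hadh, Cpt1a, Etfa, Acot12, Acaa1a, Ehhadh, Decr2 and Acot1) and 5 lower (Vnn1, Bdh1, Hadha, Acot8 and Crot). The same count was not made over all measured genes, so it is not particular to the members. It largely follows the size of the ratio, because leaving out the scaling lowers every ratio by 0.25. Several alternatives, such as the deposited table, hardly change a bright gene with a single probe.

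**Figure D1:**
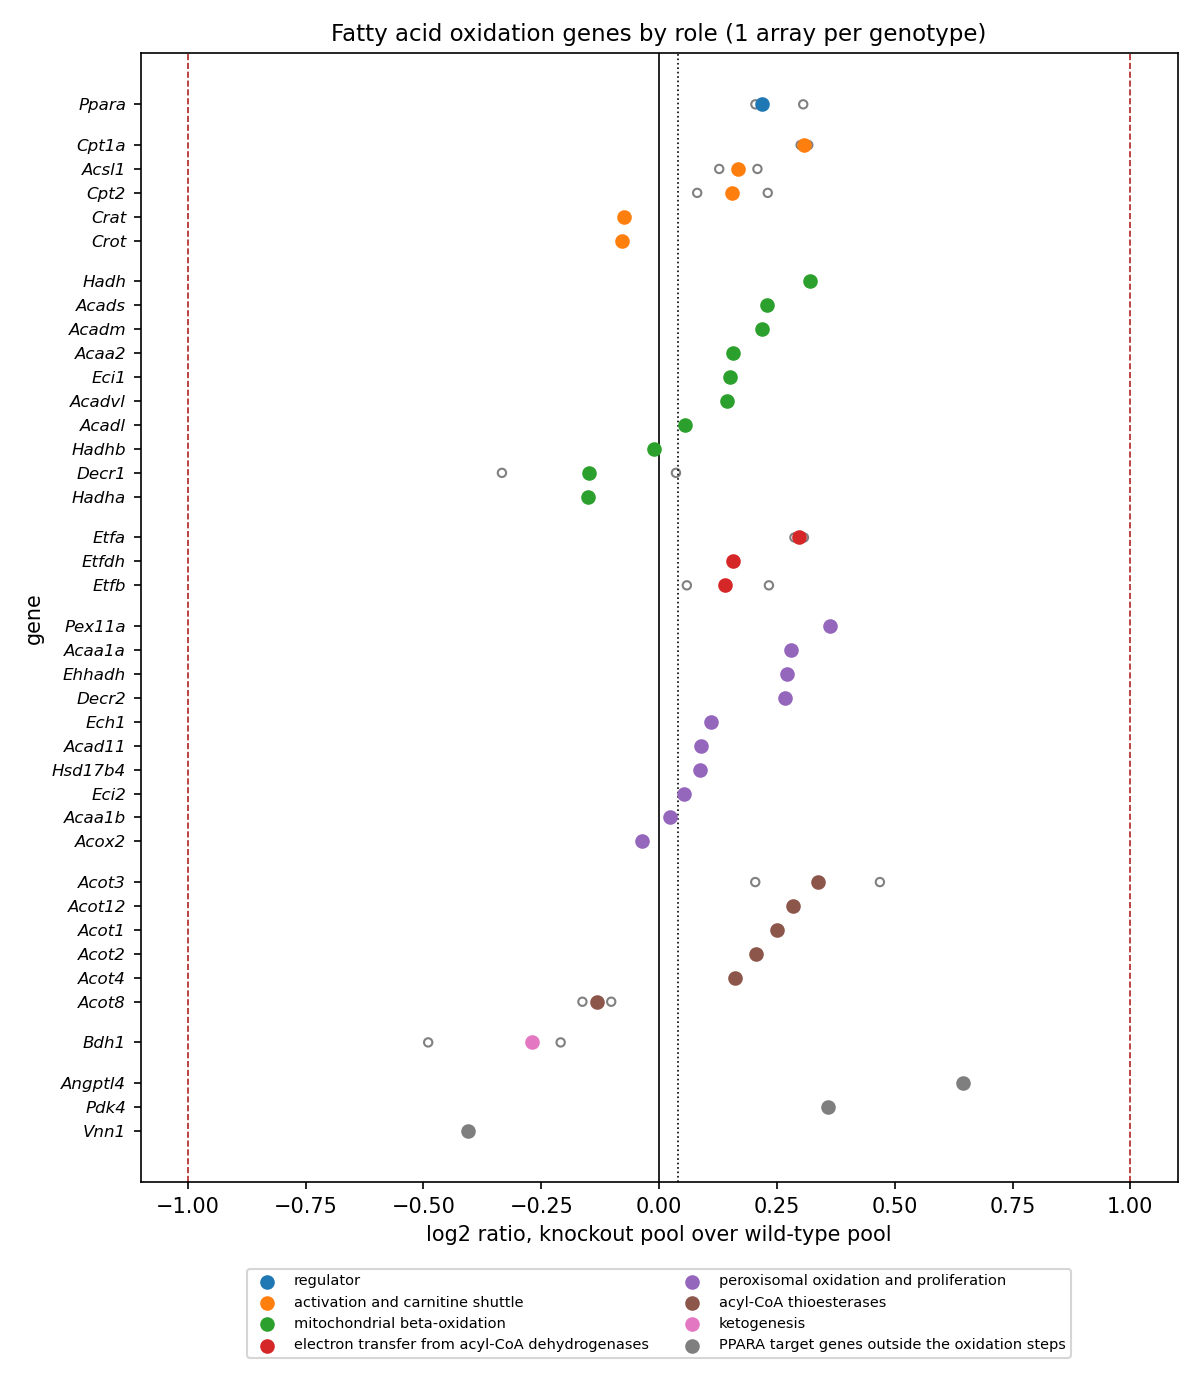
Log2 ratio of the knockout pool over the wild-type pool (x axis) for each of the 39 genes (y axis), grouped by role in colour; open circles are single probes of genes with several, filled circles the gene's median. The solid line is 0, the dotted line the median of all measured genes (0.04) and the dashed lines 2-fold in either direction, which no gene reached.

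**Figure D2:**
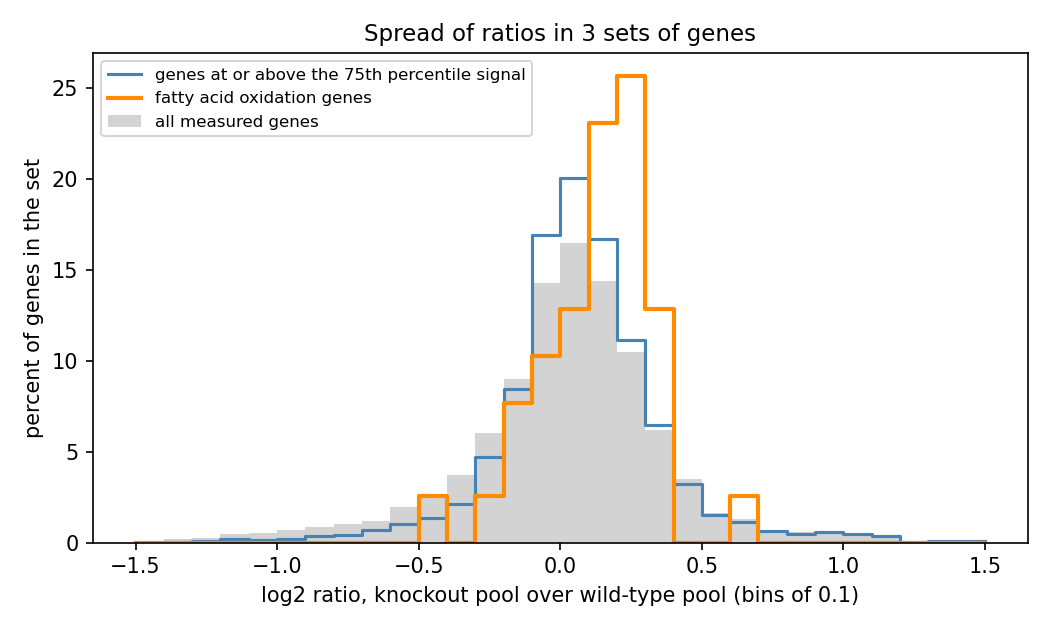
Percent of genes (y axis) in bins of the log2 ratio of knockout over wild type (x axis) for all 19971 measured genes in grey, 8051 genes at or above the 75th percentile signal in blue and the 39 fatty acid oxidation genes in orange. The orange outline is narrower than the grey bars, which include dim genes, and peaks between 0.2 and 0.3. Genes outside -1.5 to 1.5 are not drawn.

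The receptor itself, Ppara, was slightly higher in the knockout pool. Its 3 probes went from scaled signals of 35.7, 12.9 and 6.61 (wild type) to 44.1, 15.0 and 7.61 (knockout), with log2 ratios of 0.31, 0.22 and 0.20. All its probes were higher, by amounts above the 0.09 spread between probes, but without scaling its ratio was -0.03.

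Entry into the oxidation pathway was likewise close to the wild type. Cpt1a, the carnitine acyltransferase at the outer mitochondrial membrane and the rate-limiting step of import, was measured by a probe printed 10 times, whose processed signal ranged from 26398 to 28362 (median 27393) in the wild type and from 27608 to 30429 (median 28683) in the knockout. The spots of that probe overlap between the arrays before scaling; after it, all lay higher in the knockout, by 0.26 to 0.43, with a mean log2 ratio of 0.32 and an SD of 0.05. A further Cpt1a probe gave 0.30. Cpt2, which returns acyl groups to CoA on the matrix side, had 0.16, and Acsl1, the main long-chain acyl-CoA synthetase of liver, had 0.17. The acyltransferases that handle short and medium chains were just below 0, with Crat (carnitine acetyltransferase) at -0.07 and Crot (peroxisomal carnitine octanoyltransferase) at -0.08. Each had a single probe, and both ratios are within the 0.09 spread between probes. The Crat probe was dim, with processed signals of 127 and 102. Crat was above 0 with quantile normalization (0.01) and with the normexp background (0.02).

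Within the mitochondrial cycle, 7 of 10 enzymes were above 0, and the median was 0.15. The acyl-CoA dehydrogenases, which open each turn and differ in chain length, had 0.14 for Acadvl (very long), 0.06 for Acadl (long), 0.22 for Acadm (medium) and 0.23 for Acads (short). Acadl was nearest to the median of all genes. The last 2 steps for shorter chains were also above it: Hadh, the hydroxyacyl-CoA dehydrogenase, went from a scaled signal of 27.8 to 34.7, a ratio of 0.32, and the thiolase Acaa2 had 0.16. Acaa2 was printed 10 times, and its spot ratios ran from 0.03 to 0.38 with an SD of 0.10, so its spots were less even than those of Cpt1a.

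The trifunctional protein carries out the last 3 steps on long chains, and neither of its subunit genes was above 0. Its alpha subunit gene Hadha went from a scaled signal of 3.57 to 3.21, a ratio of -0.15, and its beta subunit gene Hadhb had 32.3 and 32.1, a ratio of -0.01. Both lay below the median of all genes, Hadhb by less than the 0.09 spread between probes. With median scaling Hadhb was above 0, at 0.05. Each was read by a single probe, and Decr1 of the same cycle also had -0.15. The genes start back to back on chromosome 5, 273 bases apart in GRCm38.p6, so the bases upstream of Hadhb are upstream of Hadha too. That shared stretch is shown because it belongs to both subunits of the complex, as chr5:30155003-30155252 on the plus strand from RefSeq, with the GC box GGGCGG in capitals.
Hadha and Hadhb: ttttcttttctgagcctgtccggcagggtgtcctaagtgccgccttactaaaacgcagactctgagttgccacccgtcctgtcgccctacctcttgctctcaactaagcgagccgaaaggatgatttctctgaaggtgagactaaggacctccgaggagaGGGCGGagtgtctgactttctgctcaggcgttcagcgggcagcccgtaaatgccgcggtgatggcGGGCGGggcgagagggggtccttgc
GGGCGG was searched on both strands. It occurred 2 times here, both on the plus strand. It was held by 24 of the 37 promoter windows of members in the table and by 35.7% of all 32851 windows, which run from 250 bases before to 50 after a gene's start. A match is a description of letters and not of binding.

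Enzymes for unsaturated chains differed between probes or lay near the middle. Decr1, the mitochondrial dienoyl-CoA reductase, was the only member whose probes fell on either side of 0. Its brighter probe had 0.04 (scaled signals 64.7 and 66.3) and its dimmer probe -0.33 (1.44 and 1.15), which gave a median of -0.15. Eci1, the enoyl-CoA isomerase, had 0.15. Electrons from the acyl-CoA dehydrogenases pass to ubiquinone through the flavoprotein encoded by Etfa and Etfb and its dehydrogenase Etfdh. These genes were all above 0, at 0.30, 0.14 and 0.16, and the 3 Etfb probes ran from 0.06 to 0.23.

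Peroxisomal genes showed the same small range. Of 10 genes for peroxisomal oxidation and proliferation 9 were above 0, with a median of 0.10. Pex11a, which promotes peroxisome division and is a PPARA target, was the highest: its 10 spots read 32406 to 37510 (median 35095) in the wild type and 35480 to 40646 (median 38044) in the knockout. Its scaled log2 ratio was 0.36, with an SD of 0.03 between spots, and it stayed above 0 without scaling, at 0.12. Ehhadh, the L-bifunctional enzyme and a strongly inducible PPARA target, had scaled signals of 21.6 and 26.0 and a ratio of 0.27. Decr2, the peroxisomal dienoyl-CoA reductase, also had 0.27. Hsd17b4, the D-bifunctional enzyme, had 0.09, and Acox2, the oxidase for branched chains and bile acid intermediates, -0.04.

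The thiolase pair Acaa1a and Acaa1b encode near-identical proteins. Acaa1a had scaled signals of 88.9 and 107.9, a ratio of 0.28, and Acaa1b 67.4 and 68.5, a ratio of 0.02. Their probes matched at no more than 22 of 60 bases without gaps, but how each binds the other's transcript was not tested. Ech1 (0.11), Eci2 (0.05) and Acad11 (0.09), an acyl-CoA dehydrogenase family member, completed the group.

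The acyl-CoA thioesterases, which release free fatty acids and CoA again, had a median of 0.23, with 5 of 6 above 0. The clustered genes Acot1 (cytosol), Acot2 (mitochondria), Acot3 and Acot4 (peroxisomes) lie side by side on chromosome 12 and encode closely related proteins; their probes matched each other at no more than 25 of 60 bases without gaps, but cross-binding was not tested. Acot1 had scaled signals of 17.7 and 21.0 (0.25), Acot2 0.20 and 0.23 (0.21) and Acot4 4.75 and 5.31 (0.16). Acot12, a cytosolic acetyl-CoA hydrolase, had 0.28. Acot8, a peroxisomal thioesterase of broad chain length, was lower with both probes (-0.10 and -0.16).

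Acot3 had a pair of probes that stood 0.20 and 0.47 above 0. The first, with scaled signals of 15.9 and 18.3, is placed by the array file at chr12:85400452-85400511 in mm9. It is shown because it holds a CA-rich run of 21 bases, in capitals, that probes for Itgam and Slc35e2 also hold; bases 1 to 30 of its 60 are given.
Acot3 probe A_55_P2038347: gtgtACACACACACATATACACACAagcac
The probes for Itgam and Slc35e2 had ratios of -0.69 and -0.15. The second Acot3 probe, with scaled signals of 1.94 and 2.69, shared no run of 20 bases with a probe of another gene. Among the 52 member probes, 2 shared such a run, the other being that for Hadhb.

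Ketogenesis is represented among the members by Bdh1, the mitochondrial dehydrogenase that converts acetoacetate to 3-hydroxybutyrate, and it was lower in the knockout pool with each of its 3 probes. The scaled signals of the brighter probes went from 47.7 to 39.6 and from 24.6 to 21.3, which are ratios of -0.27 and -0.21. The dimmest probe, with processed signals of 1814 and 1090 before scaling, had -0.49. The gene's ratio was -0.27 (1.21-fold lower), 15.3% of all measured genes were lower still, and the range over alternatives was -0.51 to -0.21. The array file places the probes in mm9 at chr16:31457378-31457437, chr16:31457249-31457308 and chr16:31458195-31458254. Bases 1 to 30 of each 60-base probe are shown in that order, because the lower value of Bdh1 rests on these separate stretches.
A_51_P163106: tgggtggccctaaacctcagggccaatatg
A_55_P2181753: gtttaccttttgattagctgttgaggatta
A_52_P468343: tggtcacctcttctttgtattgggaacttc
No annotation of mm9 was used, so whether these stretches are coding is not given.

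The remaining ketone body genes came from a list of 12 that are not members, of which 10 were measured, with 6 above 0 and a median of 0.04. Among all measured genes 56.9% were above 0, also with a median of 0.04. Acat1, which condenses acetyl-CoA, had 0.22, from scaled signals of 14.9 and 17.3. The largest difference was in export: Slc16a6, a monocarboxylate transporter that carries ketone bodies out of hepatocytes, was 2.36-fold lower, with probes at -1.03 (1.83 and 0.895) and -1.45 (0.105 and 0.0383). With the normexp background it was within 2-fold, at -0.80. Slc16a1, a monocarboxylate transporter of wide tissue range, had 0.02 and Slc16a7 0.09, the latter from 4 probes between -0.13 and 0.71.

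On the side of ketone use, Oxct1, the transferase that lets other tissues burn ketone bodies and that hepatocytes largely lack, had -0.41, and Aacs, which returns acetoacetate to lipid synthesis, -0.27. Sirt3, a mitochondrial deacetylase, had 0.35. Bdh2, a cytosolic dehydrogenase family member, had a single probe at 4.22 and 7.73, a ratio of 0.87. Bdh1 with these genes had a median of 0.02 over 11 measured genes, which is the ratio of Slc16a1. The single Slc16a1 probe was dim, with scaled signals of 0.112 and 0.113. The median of the 11 was -0.23 without scaling, -0.14 with the spike-in controls and -0.12 with quantile normalization.

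Set side by side, the mitochondrial steps (16 genes: the cycle, electron transfer, Cpt1a, Cpt2 and Acot2) had a median of 0.16 with 13 above 0, and the peroxisomal steps (14 genes: the peroxisomal group, Crot, Acot3, Acot4 and Acot8) a median of 0.10 with 11 above 0. The medians differed by 0.06, and under the alternatives that difference ran from 0.01 with the normexp background to 0.08 with quantile normalization. The mitochondrial median was below 0 without scaling (-0.09) and with the spike-in controls (-0.01), and the peroxisomal median with these (-0.15 and -0.06) and with quantile normalization (-0.05) and loess (-0.02). Ech1, Eci2 and Acad11 were counted as peroxisomal, although enzymes of these families are also reported in mitochondria. The mitochondrial range was -0.15 to 0.32 and the peroxisomal range -0.13 to 0.36, so the groups overlapped almost wholly. Ketogenesis, with the single member Bdh1, lay below both ranges.

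The 3 PPARA targets outside the oxidation steps were the most spread out, and held both ends of the range. Angptl4, a secreted inhibitor of lipoprotein lipase, went from a scaled signal of 35.0 to 54.7, which is 1.56-fold; 3.64% of all measured genes had a higher ratio. It fell short of 1.5-fold without scaling and with the spike-in controls, quantile normalization or loess, and was above 0 under each alternative. Pdk4, the kinase that shuts off pyruvate dehydrogenase in fasting, had processed signals of 945 and 1022 before scaling, and a scaled ratio of 0.36. Vnn1, a pantetheinase that PPARA agonists induce, had 5.74 and 4.34, a ratio of -0.41 (1.32-fold lower), and 9.89% of all measured genes were lower. Each of these genes had a single probe.

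Other genes of the pathway and of related acyl-CoA metabolism, which are not members, were listed separately. Of 132 genes in 7 lists, 127 were measured and 93 were above 0, with a median of 0.17. Among all measured genes 56.9% were above 0, and among the bright genes 63.1%, with medians of 0.04 and 0.06. Counts above 0 in these lists move with the scaling too, since leaving it out lowers every ratio by 0.25. Of the 127, 2 were 2-fold higher and 2 were 2-fold lower, shares near the 1.29% and 1.85% of all measured genes. At 1.5-fold 14 were higher, more than the 4.42% of all measured genes, and 4 were lower, beside 5.94%. Of these 14, 6 were partners, regulators or targets of PPARA and 4 were omega-oxidation genes. The lists were chosen with earlier results of these data known, so these counts are descriptions. The genes past 2-fold are described as single genes and not as a property of the pathway. Fgf21, the fasting hormone of liver and a PPARA target, had scaled signals of 1.60 and 0.134, a log2 ratio of -3.58. Slc16a6 was the other gene that was 2-fold lower. Ppargc1a, the coactivator that joins PPARA on oxidation genes, had probes at 1.57 and 3.18 and at 0.118 and 0.262, and was 2.12-fold higher. Lpin1, a phosphatidate phosphatase that also coactivates PPARA, was 2.04-fold higher, with probes at 1.20 and 0.87. Ppargc1a fell within 2-fold without scaling (0.84), with the spike-in controls (0.92) and with the normexp background (0.95), and Lpin1 under the same settings (0.79, 0.87 and 0.96) and with loess (0.99). Acsm2, a medium-chain acyl-CoA synthetase, was clear of background on the wild-type array alone and was at least 5.88-fold lower by its single dim probe, or at least 2.04-fold with the normexp background.

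The highest list median was that of the other mitochondrial acyl-CoA enzymes, 0.34 over 26 genes with 21 above 0. It is not a median of fatty acid oxidation alone, since enzymes of amino acid breakdown are in that list. Among its highest, Hsd17b10, which acts on branched short chains, had scaled signals of 34.4 and 57.9 (0.75), Ivd, the isovaleryl-CoA dehydrogenase of leucine breakdown, had 0.69, and the thioesterase Them4 1.13 and 1.59 (0.50). Slc25a20, the carnitine carrier between Cpt1a and Cpt2, had 0.05. The omega-oxidation list, whose enzymes make the dicarboxylic acids that peroxisomes shorten, had a median of 0.27, with 9 of 10 above 0. Cyp4a32 (0.93), Cyp4a31 (0.92) and Cyp4a10 (0.90) were its highest, and probes of this family can bind near-identical copies. Cyp4a10 is a strongly PPARA-responsive gene, as is Cyp4a14, which had 0.36.

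Other peroxisomal enzymes had a median of 0.11, with 15 of 26 above 0. Among its largest ratios were Acot5 (0.53), a thioesterase, and Abcd4 (0.53), a transporter of the ABCD family. Peroxins, which build the organelle, had 0.17, with 14 of 15 above 0 and Pex19 (0.43), Pex16 (0.36) and Pex7 (0.35) highest. Without scaling each of these ratios is 0.25 lower, which puts most peroxins below 0. Other acyl-CoA synthetases had 0.16 with 9 of 13 above 0, led by Acss1 at -0.70, Acsm3 at 0.62 and Slc27a1 at 0.58. The single Acss1 probe was dim, with scaled signals of 0.124 and 0.0763. Partners, regulators and targets of PPARA had 0.13 with 19 of 27 above 0. The receptor's partner Rxra had 0.44, and the fatty acid-binding protein gene Fabp1, an abundant PPARA target, -0.01.

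**Figure D3:**
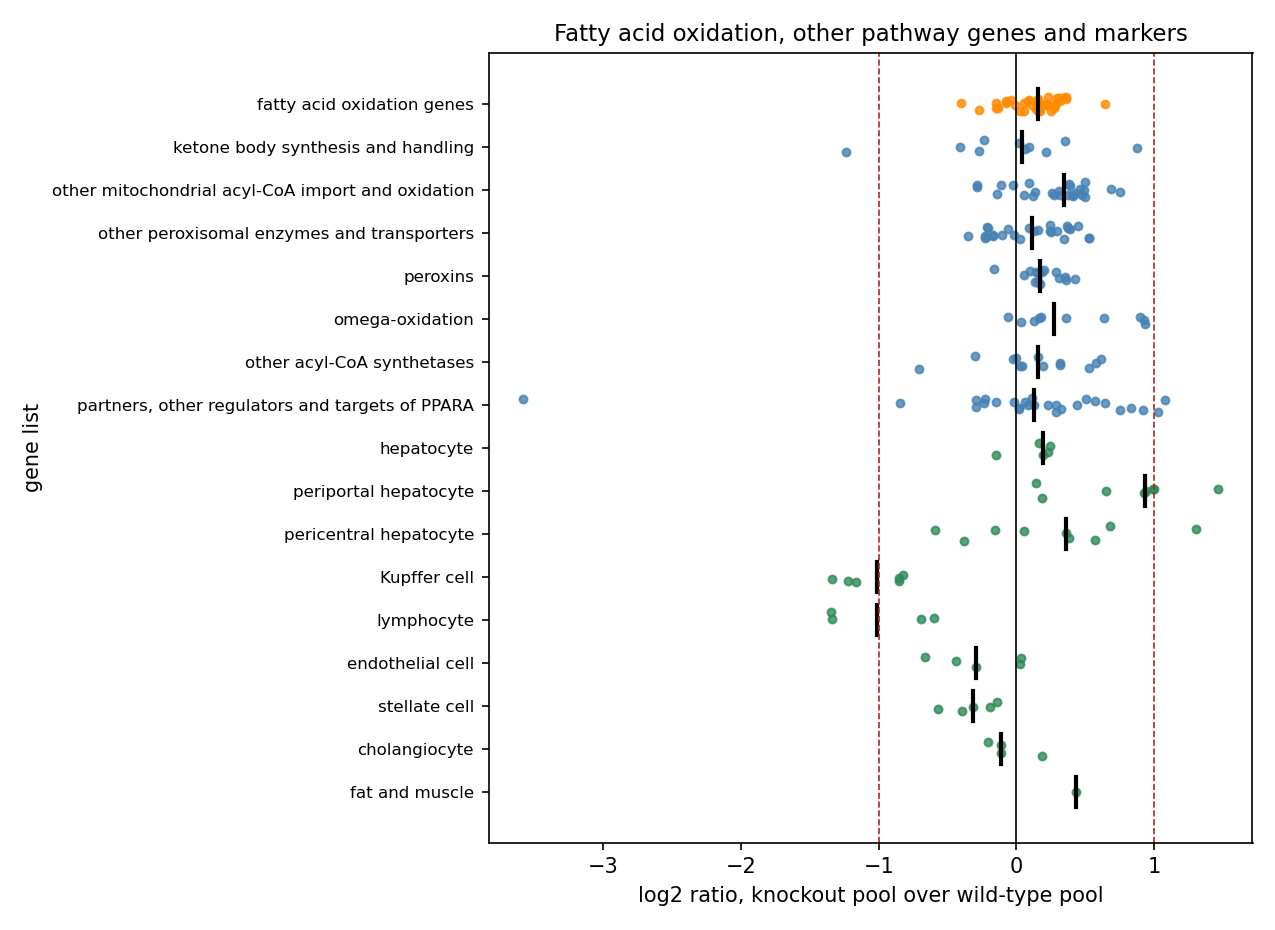
Log2 ratio of knockout over wild type (x axis) for the genes of each list (y axis), with the fatty acid oxidation genes in orange, other pathway lists in blue and cell type markers in green; each point is a gene, points are jittered vertically, black bars are medians and dashed lines mark 2-fold. The orange points sit between -0.41 and 0.64, while Fgf21 at -3.58 and the Kupffer cell and lymphocyte markers lie far to the left.

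In bulk liver, fewer cells of a type and less RNA per cell cannot be told apart. Of 6 hepatocyte markers 5 were measured, all brightly (Alb at scaled signals of 326.2 and 385.9), with ratios from -0.15 to 0.24 and a median of 0.19, close to the members' 0.16. All 6 Kupffer cell markers were lower (-1.34 to -0.82) and so were all 4 measured of 5 lymphocyte markers (-1.35 to -0.60). The lymphocyte probes were dim (Cd3d at 0.201 and 0.0790), except an Nkg7 probe at 1.92 and 1.87, whose ratio was -0.04. Endothelial markers had a median of -0.29 (2 of 5 above 0), stellate cell markers -0.32 (0 of 5) and cholangiocyte markers -0.11 (1 of 4). Of the fat and muscle markers Ucp1 and Ckm were not well above background on either array. Adipoq and Plin1 were so only in the wild type, but with bounds of -0.09 and 0.06 these calls do not establish a difference. Cpt1b had 0.43 from dim probes (0.0926 and 0.125). Fatty acid oxidation is stronger in periportal than in pericentral hepatocytes. All 8 periportal markers were above 0 with a median of 0.93, and 6 of 9 pericentral markers with a median of 0.36, both above the members' median. The part of these markers' shifts in the members' ratios was not tested.

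**Figure D4:**
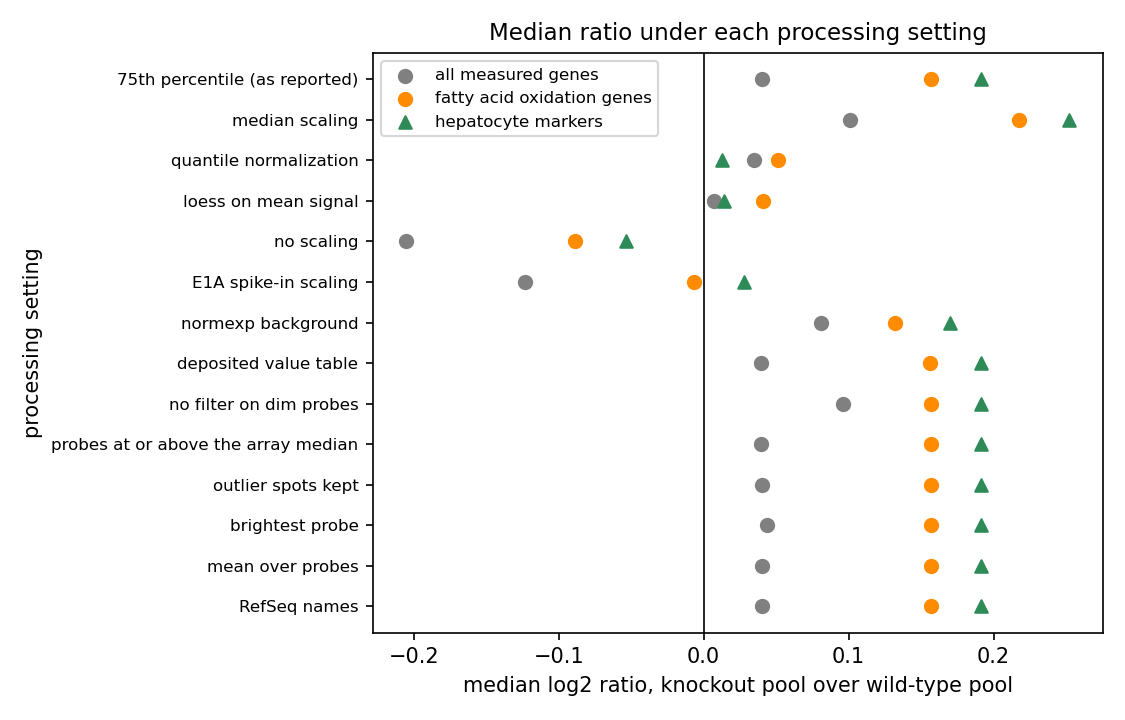
Median log2 ratio, knockout against wild type (x axis), under each processing setting (y axis) for all measured genes (grey circles), the fatty acid oxidation genes (orange circles) and 5 hepatocyte markers (green triangles). Without scaling the medians were -0.21, -0.09 and -0.05, and with quantile normalization 0.03, 0.05 and 0.01.

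The promoter windows of 33 members were in the RefSeq table of GRCm38.p6 (37 windows). The direct repeat recognised by PPARA with RXR, DR1, was searched on both strands as a pair of AGGTCA hexamers spaced by any 1 base, and with AGGNCA in place of each hexamer. Both forms were found in 0 of these 37 windows, and in 0.0396% and 0.381% of all 32851 windows. That says only that these letters are not in these windows. Of the 52 member probes, 48 are placed by the array file on the chromosome of their gene, 2 are unmapped (Ech1 and Eci1), and 2 are placed elsewhere. These are the Acadm probe, at chr11:75523663-75523722 where the gene is on chromosome 3, and an Etfa probe, at chr1:29794337-29794396 where the gene is on chromosome 9. That Etfa probe had 0.31, and the Etfa probe on chromosome 9 had 0.29. For Acadm there was no further probe.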

How the data were processed

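Liver RNA was hybridised to 1 one-colour (Cy3) array per genotype, grouped by the genotype in the labels. Labelling started from 200 ng RNA, per the labels' protocols. The submitters' processing notes name Feature Extraction 11.5.1.1, with which the authors read spot intensity. The deposited files give background-subtracted intensity on a linear scale with probe coordinates in mm9. The deposited value table holds the same intensity divided by a constant per array (1207 and 1019), with column medians of 0.0800 and 0.0763; it is not centred. No sample column was unused (0).

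Processed signals were divided by the 75th percentile of their array, taken without control spots, and put on a log2 scale. Control spots and spots with a feature outlier mark were left out (119 and 170 spots; 0 of members), spots of a probe were averaged, and a gene's ratio is the median of its probes well above background on both arrays. A gene above background on 1 array has a bound against the lowest such signal of the other. Genes carry the array file's names. No test was made; genes were counted at 2-fold and 1.5-fold, and the same shares are given for all measured genes. Members, lists and roles were chosen with earlier results of these data known, so counts over them are descriptions. All members are described; of other pathway genes, those past 2-fold, the measured ketone body genes and up to 3 per list with the largest ratios are named, with a few more chosen after their values were seen. Some genes that this rule names are not reported here, but are counted in their lists. Alternatives were no scaling, scaling by spike-ins or the median, loess (span 0.3), quantile normalization, normexp background (offset 50), the deposited table, other probe filters and summaries, and RefSeq names. The steps were tested on simulated data. Python 3.11.15, pandas 2.3.3, numpy 2.4.6, statsmodels 0.14.6, R 4.3.3 and limma 3.58.1 were used.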

Additional observations from a re-analysis of the deposited data

How the results depend on the processing

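No array could be left out, and no paired analysis was possible because there is only 1 array per genotype. No member reached 2-fold under any of the 13 alternatives. Without scaling, 12 members were above 0, 0 were 1.5-fold higher and 1 (Vnn1) 1.5-fold lower; the medians were -0.0887 over members, -0.0891 for mitochondrial steps, -0.15 for peroxisomal steps and -0.23 for Bdh1 with the ketone body list, and the Pnpla8 bound was -3.01. With the spike-in controls, 17 were above 0 and 0 were 1.5-fold higher; the same medians were -0.00679, -0.00726, -0.0638 and -0.14, and the bound -2.93. With quantile normalization 0 were 1.5-fold higher and the medians were 0.0516, 0.0353, -0.0468 and -0.12. With loess 0 were 1.5-fold higher, and the members, mitochondrial and peroxisomal medians were 0.0408, 0.0374 and -0.0188. The normexp background moved the Pnpla8 bound to -1.1. The ketone body median was -0.0769 with no filter on dim probes and -0.0851 by the brightest probe; the former also counts genes and probes that are not well above background. Scaling by the percentile, the median or the spike-ins shifts all genes together, while quantile normalization and loess do not. Why the arrays differ by 0.25 in log2 before scaling was not tested. A change was counted as a move when it passed 0.09, the median SD between probes of a gene.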
